A study of Mus musculus with 32 samples.

Results

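The genes described are the Bcl2 family of apoptosis regulators, chosen by name: Bcl2, Bcl2l1, Mcl1, Bax, Bak1, Bcl2l11, Bbc3, Pmaip1, Bid and Bnip3l. Of these 10 genes, 8 had a probe set annotated to that gene alone, 27 probe sets of 45037 on both chip types. A probe set is the group of short probes on the array that reads 1 transcript. Of the 27 probe sets, 19 were bright enough to be tested, and they cover 7 genes, since neither Bak1 probe set was. No probe set carries the symbol Bax here. The 3 probe sets for Bnip3l are annotated to it together with Bnip3l-ps, so they are given by their identifiers and were not counted.

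RNA of mouse bone marrow was measured in 16 samples, each hybridised to 2 Affymetrix mouse arrays, chip types A and B. The stem-enriched population was flow-sorted, and its instrument records read Lin-Sca1+cKit+. Immature marrow cells carry the surface proteins Sca-1 and cKit, while mature blood cells carry lineage markers. The cKit-positive population was sorted as lineage-negative, Sca-1-negative and cKit-positive, and the cKit-negative population as lineage-negative, Sca-1-negative and cKit-negative. An enrichment kit gave the lineage-depleted marrow, without a sort, and total marrow was not separated. These 5 populations had 3 samples each. A sorted Sca-1-positive cKit-negative population had 1 sample, which was described without a test. No treatment, strain, genotype or age of the mice is given for any population. The labels do not say whether samples came from separate animals, so the p-values rest on a spread between samples that may be technical in part.

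Bcl2 family proteins decide whether the outer membrane of the mitochondrion is opened, the step that lets cytochrome c out and starts the caspases. Bcl2, Bcl-xL (from Bcl2l1) and Mcl1 keep the membrane closed, and Bax and Bak1 form the pores. The BH3-only proteins Bim (Bcl2l11), Puma (Bbc3), Noxa (Pmaip1) and Bid bind the first group or set off the second. In mice, loss of Mcl1 removes haematopoietic stem cells, Bcl-xL keeps maturing red cells alive, Bim limits the number of blood cells, and Bnip3l clears mitochondria from maturing red cells.

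Cell markers matched the names of the populations in part. The summed signal of 8 stem-cell-associated genes was 49300 to 65300 in stem-enriched cells, against 8850 to 10300 in total marrow. Among them only Gata2 had a lower mean log2 signal in stem-enriched cells (12.3) than in cKit-negative cells (12.8). The summed signal of 8 late granulocyte genes was 30100 to 68000 in stem-enriched samples and 19800 to 35800 in cKit-positive ones. It was 388000 to 673000 in cKit-negative cells, although these had been sorted as lineage-negative. In lineage-depleted marrow it was 228000 to 492000, and in total marrow 609000 to 730000. The second cKit-positive sample was unlike the rest, with a correlation of 0.571 to 0.69 with the other samples across probe sets, against 0.74 to 0.934 for all other pairs. Its log2 ratio of 3 prime to 5 prime Gapdh control signal was 0.38, against 2.68 to 4.17 in the 15 other samples, and signals of dim probe sets were high in it. Counts below are given with and without it where it changes them by over 1.5 times. Shares of all probe sets belong to the fit with no sample left out. Counts without a sample thus have no share beside them and are not read as results about these genes. Median signal per array was 451.4 to 877.4 on chip type A and 779.6 to 996.1 on chip type B. Arrays of stem-enriched cells, of lineage-depleted marrow and of total marrow were each scanned on a day that no other tested population shared. In every comparison with these 3, day of scanning and population cannot be told apart. Cells labelled cKit-positive and cKit-negative shared scan days, except cKit-positive replicate 1 on chip type A. The precision is limited by the 3 samples per population.

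Across the 5 populations 11 of the 19 tested family probe sets differed in limma's moderated F test at an adjusted p under 0.05, which is 57.9% of them, and 17.1% of all tested probe sets did. By the brightest tested probe set of each gene, Bcl2, Bcl2l1, Mcl1, Bcl2l11 and Pmaip1 differed, and Bbc3 and Bid did not pass. The largest counts came from the cKit-positive cells. Against cKit-negative cells 8 of the 19 family probe sets were lower and none was higher in them, with 11.3% of all probe sets called (6.37% lower). Against total marrow 6 were lower and 1 was higher in cKit-positive cells, with 16.9% of all probe sets called (8.43% lower). Most of the lower probe sets in both comparisons were of 1 gene, Mcl1. Counted once per gene, by the brightest tested probe set, 3 of 7 genes were called against cKit-negative cells and 2 of 7 against total marrow. The median log2 difference over the 19 was -0.87 against cKit-negative cells, where the median over all tested probe sets was 0.08. Against total marrow it was -0.50, beside 0.15 over all.

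**Figure D1:**
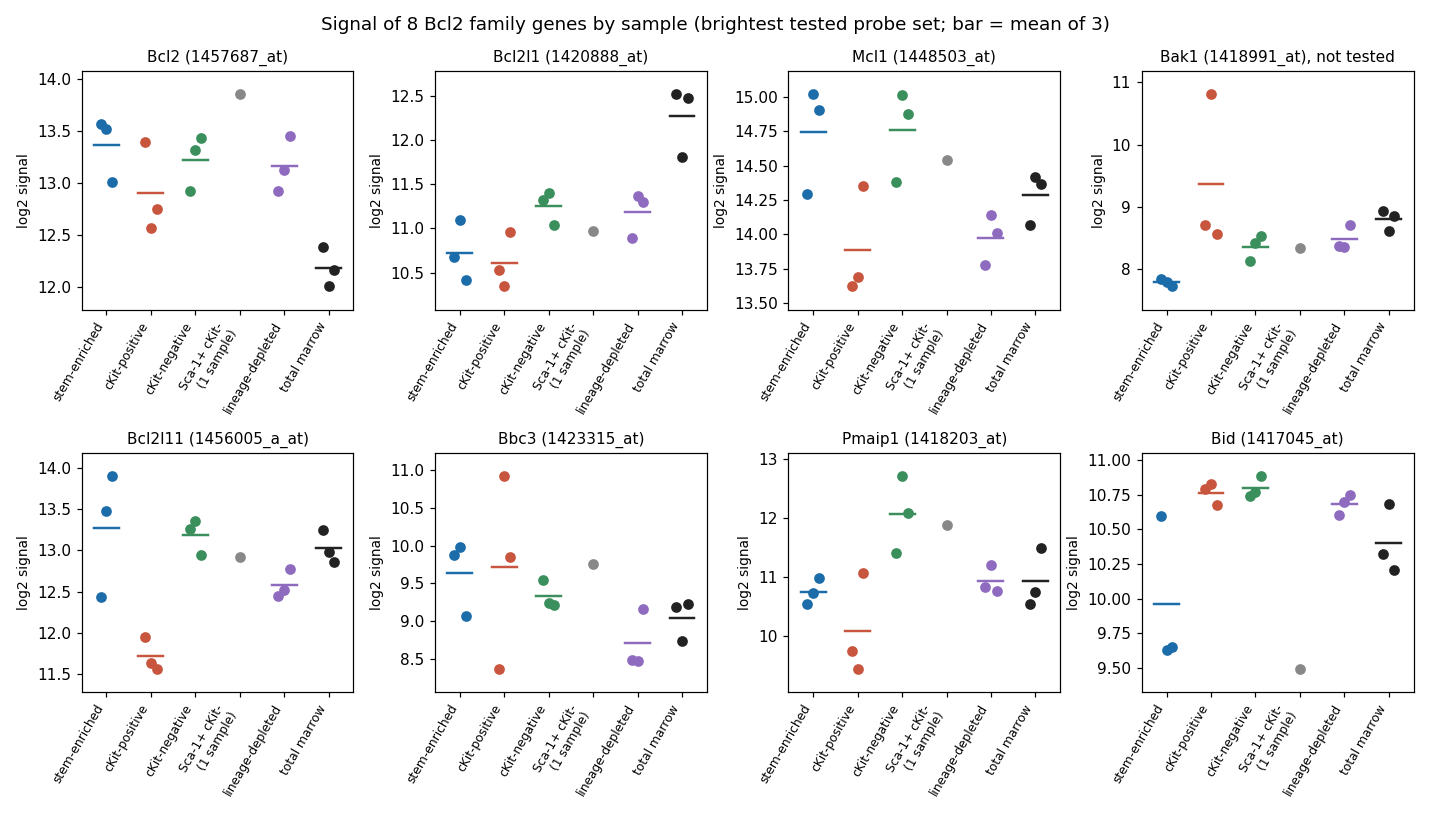
Log2 signal of 8 Bcl2 family genes in every sample, by population from stem-enriched cells on the left to total marrow on the right. Each point is a sample and each bar the mean of 3 samples. By the brightest probe sets, shown here, Bcl2 was lowest and Bcl2l1 highest in total marrow, and Bcl2l11 was lowest in cKit-positive cells.

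The stem-enriched cells had fewer called members. Against cKit-positive cells 4 of the 19 were higher and none lower (2.21% of all probe sets called, 1.48% higher), against cKit-negative cells none was higher and 3 lower (8.4%), and against total marrow 3 were higher and 2 lower (14.2%). Counted once per gene, by the brightest tested probe set, 1, 2 and 2 of 7 genes were called in these comparisons. The 4 probe sets called against cKit-positive cells were of Mcl1, except 1 of Bcl2l11. The first count of probe sets was 8 without stem-enriched replicate 1 and 1 without replicate 2 or 3. The second was 0 without cKit-negative replicate 2, and 1 without any of 8 other samples (stem-enriched replicates 2 and 3, cKit-negative replicate 3, the 3 of lineage-depleted marrow, and total marrow replicates 1 and 2). None passed in stem-enriched cells against lineage-depleted marrow (2.32% of all), although 8 had an unadjusted limma p under 0.05, as did 14.5% of all probe sets. Without stem-enriched replicate 1 that count was 5, and without cKit-positive replicate 2 it was 2.

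Lineage-depleted marrow had 2 probe sets higher and 1 lower against total marrow (4.15% of all). That count was 6 without cKit-positive replicate 2 and 5 without stem-enriched replicate 1. It was 1 without lineage-depleted replicate 2 or total marrow replicate 1, and 0 without lineage-depleted replicate 1 or 3 or total marrow replicate 3. Cells labelled cKit-positive had no call against lineage-depleted marrow (1.24% of all, with 5 of 19 family probe sets at an unadjusted p under 0.05, beside 12.8% of all), and 1 call without their replicate 1. Likewise cKit-negative cells had none against lineage-depleted marrow (1.5% of all, with 7 at an unadjusted p under 0.05, beside 15.2% of all), but 3 without cKit-positive replicate 2 and 1 without cKit-positive replicate 1. Against total marrow 1 was higher in cKit-negative cells (0.66% of all), with 4 calls without cKit-positive replicate 2 and 2 without its replicate 1. That call was lost without cKit-negative replicate 3 or total marrow replicate 2.

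By their brightest tested probe sets, Mcl1 and Bcl2l11 were both lower in cKit-positive cells than in the cKit-negative ones (adjusted p = 0.0351 and 0.00294). Against total marrow Bcl2l11 was lower too (adjusted p = 0.00461), and Mcl1 was not by that probe set (adjusted p = 0.311). The deposited files hold no probe letters. RefSeq sequence (GRCm38.p6) before the transcript starts at hand is therefore shown to place the genes on the genome. All 3 windows are the 250 bases 5′ of a start, both genes lie on the plus strand, and capitals mark matches to the motifs searched. They are chr3:95658471-95658720 for Mcl1, and chr2:128125788-128126037 and chr2:128127325-128127574 for the starts of Bcl2l11. The Mcl1 window lies inside the span listed for that gene, which begins at 95656944, and the bases before that position were not searched.
Mcl1: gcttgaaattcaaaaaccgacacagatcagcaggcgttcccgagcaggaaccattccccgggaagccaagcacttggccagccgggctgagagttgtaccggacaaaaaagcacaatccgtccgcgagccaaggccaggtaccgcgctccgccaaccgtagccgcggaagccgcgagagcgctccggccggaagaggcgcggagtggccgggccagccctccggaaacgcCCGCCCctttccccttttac
Bcl2l11, start 1: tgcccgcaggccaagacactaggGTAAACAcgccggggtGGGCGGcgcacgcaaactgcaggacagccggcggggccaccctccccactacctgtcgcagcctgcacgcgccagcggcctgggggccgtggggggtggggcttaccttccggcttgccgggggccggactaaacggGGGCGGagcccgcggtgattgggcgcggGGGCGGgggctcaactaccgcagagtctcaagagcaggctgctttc
Bcl2l11, start 2: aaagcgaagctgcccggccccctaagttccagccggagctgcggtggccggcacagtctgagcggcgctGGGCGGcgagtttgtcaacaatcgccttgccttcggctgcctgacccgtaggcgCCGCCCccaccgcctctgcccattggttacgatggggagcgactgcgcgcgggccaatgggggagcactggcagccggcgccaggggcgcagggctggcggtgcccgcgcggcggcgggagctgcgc
On either strand, the GC box GGGCGG was found 1 time before Mcl1, 3 times before start 1 of Bcl2l11 and 2 times before start 2. It is present in 32.7% of 32851 promoter windows of that length. The FOXO site GTAAACA was found 1 time, before start 1 of Bcl2l11, and is present in 3.17% of windows. The other motifs, searched on both strands, had no match in the 3 windows. They were the CRE, TGACGTCA (in 1.55% of windows), its core TGACG searched alone (17.8%), the TATA box, TATAAA (12.4%), and the ETS site, CCGGAAGT (2.88%). The E box, CACGTG, is in 6.02% of windows, the GATA site, AGATAA, in 9.99%, the kappa B site in 3.9% and the CArG box in 1.47%. The GC content was 64.4% before Mcl1, 72.0% before start 1 of Bcl2l11 and 73.2% before start 2.

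Bcl2, the founding survival protein of the family, was higher in stem-enriched cells and lineage-depleted marrow than in total marrow. Probe set 1457687_at had signals of 12166, 11782 and 8284 in stem-enriched cells, of 10763, 6078 and 6885 in cKit-positive cells and of 7792, 10245 and 11067 in cKit-negative cells. Lineage-depleted marrow had 7754, 8969 and 11194, against 5353, 4117 and 4578 in total marrow. All 12 samples of the other populations lay above the 3 of total marrow. The log2 difference from total marrow was 1.19 ± 0.27 in stem-enriched cells (SE, 2.27-fold, adjusted p = 0.00515). It was 0.98 ± 0.27 in lineage-depleted marrow (1.98-fold, adjusted p = 0.0424), 0.72 ± 0.27 in cKit-positive cells (adjusted p = 0.0707) and 1.04 ± 0.27 in cKit-negative cells (adjusted p = 0.0786). The mean log2 signal fell in the order stem-enriched cells, 13.37 ± 0.31 (SD, n = 3), cKit-negative cells, 13.23 ± 0.27, lineage-depleted marrow, 13.17 ± 0.27, cKit-positive cells, 12.90 ± 0.43, and total marrow, 12.18 ± 0.19. No neighbours in that order differed past the threshold.

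Probe sets of Bcl2 did not all give the same picture. On chip type A, 1422938_at read 2139, 1848 and 2012 in stem-enriched cells, 1685, 1008 and 1619 in the cKit-positive cells and 2615, 2277 and 2944 in cKit-negative cells. It read 1700, 1722 and 1575 in lineage-depleted marrow, against 1113, 896 and 995 in total marrow. It was higher in stem-enriched cells than in total marrow (2.00-fold, adjusted p = 0.00649) and in cKit-negative cells than in total marrow (2.60-fold, adjusted p = 0.00753). This probe set was also lower in cKit-positive cells than in the cKit-negative ones, by a log2 difference of -0.89 ± 0.23 (adjusted p = 0.0169, or 0.0644 without cKit-negative replicate 3). The call against total marrow in cKit-negative cells was lost without cKit-negative replicate 3 (adjusted p = 0.0618) or total marrow replicate 2 (adjusted p = 0.0566). The probe set 1437122_at, on chip type B, was higher than in total marrow in stem-enriched cells (2.17-fold, adjusted p = 0.0235), cKit-positive cells (1.98-fold, adjusted p = 0.0406) and lineage-depleted marrow (2.77-fold, adjusted p = 0.0137). The calls of 1437122_at were lost without 4, 7 and 3 of the 15 samples in turn, with adjusted p up to 0.12, 0.128 and 0.0718. Probe sets 1443837_x_at and 1440770_at, both on chip type B, did not differ across the populations (adjusted p = 0.546 and 0.214 in the F test).

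For 1457687_at the call in lineage-depleted marrow was lost when any of 9 of the 15 samples was left out, with an adjusted p of up to 0.18, and that in stem-enriched cells in no case. Its F call (adjusted p = 0.0192) was lost without total marrow replicate 2 (0.11) or 3 (0.0868). On chip type B the total marrow arrays come from another chip lot than those of the other 4 populations with 3 samples, so lot and population cannot be told apart for 1457687_at and 1437122_at. With chip lot as a block on chip type A, 1422938_at kept its log2 difference from total marrow in stem-enriched cells at 1.23, with an adjusted p of 0.0605. Total marrow holds many kinds of mature cell, and in such bulk RNA fewer cells of a type and less RNA per cell cannot be told apart.

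**Figure D2:**
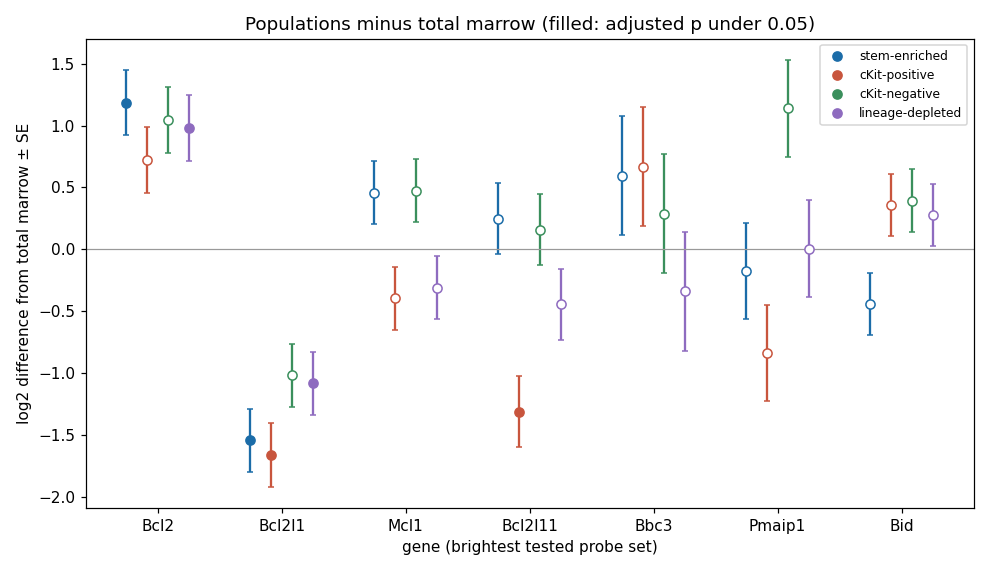
Log2 difference from total marrow (point, with its SE as the bar) of 7 tested genes in stem-enriched, cKit-positive, cKit-negative and lineage-depleted cells. Filled points have an adjusted p under 0.05. Bcl2 lies above 0 and Bcl2l1 below 0 in all 4 populations.

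Bcl2l1 ran the other way. Its tested probe set 1420888_at had signals of 1640, 2182 and 1362 in stem-enriched cells, of 1477, 1300 and 1999 in cKit-positive cells and of 2554, 2704 and 2103 in cKit-negative cells. Lineage-depleted marrow had 1902, 2652 and 2519, against 5889, 3598 and 5711 in total marrow. All 3 total marrow samples lay above the other 12. The log2 difference from total marrow was -1.54 ± 0.26 in stem-enriched cells (2.92-fold lower, adjusted p = 0.000678). For cKit-positive cells it was -1.66 ± 0.26 (3.16-fold lower, adjusted p = 0.000323). In lineage-depleted marrow it was -1.08 ± 0.26 (2.12-fold lower, adjusted p = 0.0257). In cKit-negative cells it was -1.02 ± 0.26 and did not pass (adjusted p = 0.0851). The calls in both sorted populations held without each sample in turn. That in lineage-depleted marrow was lost without any of its own 3 samples or without total marrow replicate 1 or 3, with an adjusted p between 0.0536 and 0.13.

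By mean log2 signal of 1420888_at the order was total marrow, 12.27 ± 0.40 (SD, n = 3), cKit-negative cells, 11.25 ± 0.19, lineage-depleted marrow, 11.19 ± 0.26, stem-enriched cells, 10.73 ± 0.34, and cKit-positive cells, 10.61 ± 0.32. No neighbours differed past the threshold. Erythroid transcripts were also high in total marrow. Their summed signal in cKit-negative replicate 1 was 148000, and 1420888_at read 2103 to 2704 in cKit-negative cells. The single Sca-1-positive cKit-negative sample had a sum of 5190 and read 2008 in 1420888_at. The summed signal of 8 erythroid genes was 5220 to 8000 in stem-enriched cells, 9150 to 24000 in cKit-positive cells, 32500 to 148000 in cKit-negative cells and 62000 to 85100 in lineage-depleted marrow, against 131000 to 178000 in total marrow. All 8 of these genes were lower in stem-enriched cells than in total marrow, and none lay at the floor, the signal below which all values were set equal, in all 3 samples of a population. Of the 24 values of these genes in a population, 4 lay at it in stem-enriched samples and 5 in cKit-positive ones, against 0 in total marrow. The late granulocyte sums given above were also high in total marrow, and the part of either in the level of Bcl2l1 was not tested. The 3 other probe sets of Bcl2l1 were too dim to be tested, with signals between 10.1 and 898.4.

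The probe sets shared by Bnip3l-ps and Bnip3l were likewise highest in total marrow. Bnip3l encodes a receptor for the removal of mitochondria, and these probes do not tell it from the pseudogene. Probe set 1416922_a_at read 3474, 4050 and 4245 in stem-enriched cells, 4401, 4801 and 5005 in the cKit-positive cells and 7969, 7958 and 6365 in cKit-negative cells. It read 4891, 6681 and 6656 in lineage-depleted marrow, against 9706, 15547 and 13692 in total marrow. Total marrow lay above all 12 others, and stem-enriched cells below. The log2 difference from total marrow was -1.70 ± 0.21 in stem-enriched cells (3.26-fold lower, adjusted p = 4.41e-05), -1.43 ± 0.21 in cKit-positive cells (2.69-fold lower, adjusted p = 0.000205) and -1.08 ± 0.21 in lineage-depleted marrow (2.12-fold lower, adjusted p = 0.00919). It was also lower in stem-enriched cells than in the cKit-negative ones (1.89-fold, adjusted p = 0.0109, or 0.0549 without cKit-negative replicate 2). The call in lineage-depleted marrow was lost without its replicate 1 or without total marrow replicate 2 or 3, with an adjusted p between 0.0555 and 0.0589. Probe sets 1416923_a_at and 1448525_a_at were 4.47-fold and 5.01-fold lower in stem-enriched cells than in total marrow (adjusted p = 7.6e-05 and 0.0022).

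**Figure D3:**
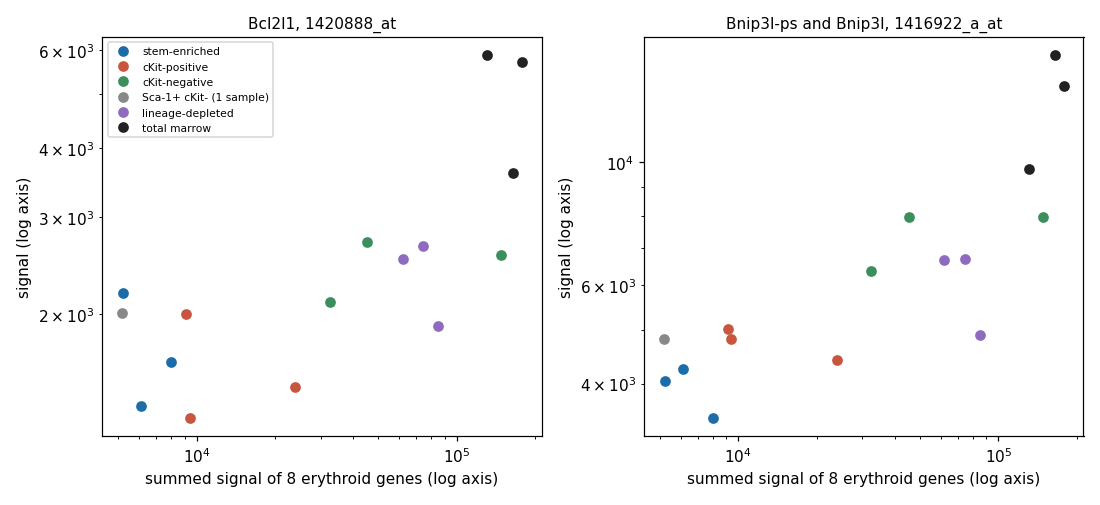
Signal of 1420888_at (Bcl2l1, left) and 1416922_a_at (Bnip3l-ps and Bnip3l, right) against the summed signal of 8 erythroid genes in 16 samples, both axes on a log scale. Each point is a sample, coloured by population. Total marrow samples are highest on the vertical axis in both panels, and stem-enriched samples are among the lowest on the horizontal axis.

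Mcl1, a short-lived survival protein, was lower in cKit-positive cells than in the cKit-negative ones by 5 of its 6 probe sets, and lower than in total marrow by 4. Both calls held without each sample in turn only in the 3 probe sets whose identifiers end in _x_at. The probe set with the largest F, 1456243_x_at, had signals of 13476, 27036 and 30682 in stem-enriched cells, of 6672, 4548 and 7977 in cKit-positive cells and of 17686, 30110 and 18592 in cKit-negative cells. Lineage-depleted marrow had 8953, 12248 and 11389, against 18819, 18294 and 18935 in total marrow. The 3 cKit-positive samples lay below all 12 others. Stem-enriched cells were higher than cKit-positive cells by 1.84 ± 0.30 on the log2 scale (3.59-fold, adjusted p = 0.00335). The cKit-positive cells were 3.45-fold lower than cKit-negative cells (adjusted p = 0.00087) and 3.00-fold lower than total marrow (adjusted p = 0.00155). These 3 calls held without each sample in turn.

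Other Mcl1 probe sets gave smaller differences or another order. Probe sets 1437527_x_at and 1456381_x_at were 2.85-fold and 3.08-fold higher in stem-enriched than in cKit-positive cells (adjusted p = 0.00809 and 0.00817). Without stem-enriched replicate 2 these adjusted p were 0.058 for both, and without replicate 3 they were 0.0584 and 0.061. Both were lower in cKit-positive cells than in cKit-negative cells (adjusted p = 0.00212 and 0.0039) and than in total marrow (adjusted p = 0.000686 and 0.00304), and these calls held without each sample. The brightest Mcl1 probe set, 1448503_at, read 20105, 33264 and 30711 in stem-enriched cells, 12593, 13228 and 20905 in the cKit-positive cells and 21276, 33149 and 30101 in cKit-negative cells. It read 14006, 18028 and 16450 in lineage-depleted marrow, against 17193, 21878 and 21068 in total marrow. Its populations overlapped, except that the cKit-positive samples lay below the cKit-negative ones and the lineage-depleted samples below both stem-enriched and cKit-negative cells. Its F call (adjusted p = 0.0406) was lost without any of 11 of the 15 samples, with an adjusted p of up to 0.094. It was 1.83-fold lower in cKit-positive cells than in the cKit-negative ones (adjusted p = 0.0351), lost without cKit-positive replicate 1 or 2 or cKit-negative replicate 2 or 3, with an adjusted p of up to 0.154. Against total marrow 1448503_at differed in cKit-positive cells by -0.40 ± 0.25 on the log2 scale (adjusted p = 0.311). For 1416880_at the F test gave an adjusted p of 0.0693, and the difference from total marrow in cKit-positive cells was -0.50 ± 0.24 (adjusted p = 0.171). Its difference between cKit-positive and cKit-negative cells was -0.71 ± 0.24 (adjusted p = 0.0674).

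Probe set 1416881_at disagreed with these in the stem-enriched cells. It read 1468, 1865 and 1679 in stem-enriched cells, 1274, 3558 and 2074 in the cKit-positive cells and 4073, 5539 and 3393 in cKit-negative cells. It read 2383, 1872 and 2163 in lineage-depleted marrow, against 3579, 4400 and 4184 in total marrow. The stem-enriched samples were below all of cKit-negative cells and total marrow and overlapped with cKit-positive cells. Its log2 difference was -1.35 ± 0.30 between stem-enriched and cKit-negative cells (adjusted p = 0.00815, or 0.057 without cKit-negative replicate 2). Against total marrow it was -1.28 ± 0.30 in stem-enriched cells (adjusted p = 0.00785, held without each sample). In 1448503_at the first of these differences was -0.02 ± 0.25. Between cKit-positive and cKit-negative cells 1416881_at differed by -1.01 ± 0.30 (adjusted p = 0.0369), a call lost without cKit-positive replicate 1 or 3, cKit-negative replicate 1 or 2 or total marrow replicate 3, with an adjusted p of up to 0.174. Against total marrow it differed in cKit-positive cells by -0.94 ± 0.30 (adjusted p = 0.0395), and that call was lost without any of 6 of the 15 samples, with an adjusted p of up to 0.144. So the level of Mcl1 in stem-enriched cells depends on the probe set, and its low level in cKit-positive against cKit-negative cells passed in 5 of the 6 probe sets. Only those ending in _x_at kept that call without each sample in turn, and the transcripts they read were not examined.

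**Figure D4:**
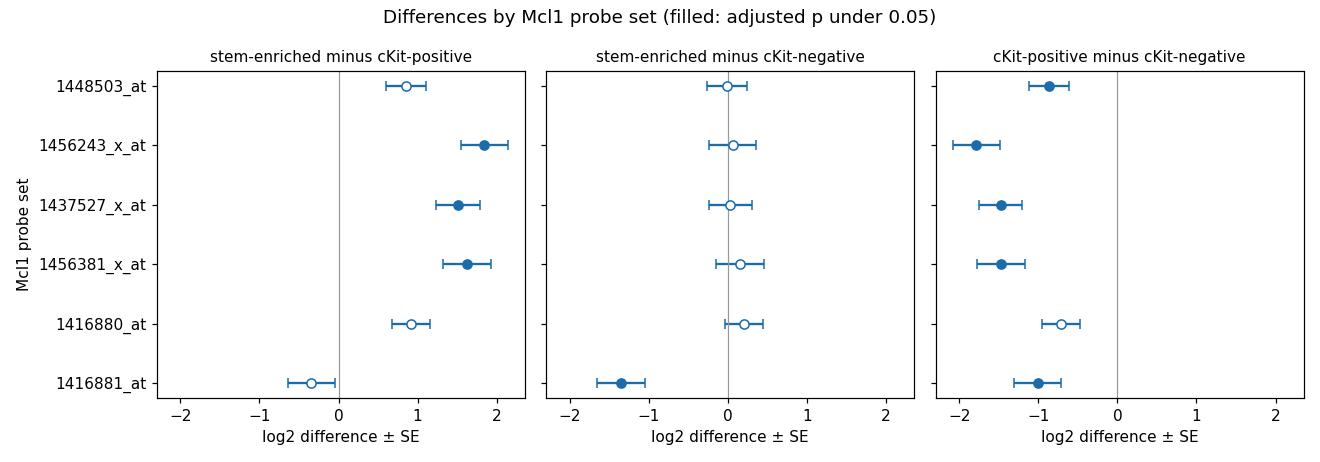
Log2 differences of the 6 Mcl1 probe sets (point, with its SE as the bar) in stem-enriched against cKit-positive cells, stem-enriched against cKit-negative cells and cKit-positive against cKit-negative cells. Filled points have an adjusted p under 0.05. In the right panel all 6 lie below 0, and in the left and middle panels 1416881_at lies apart from the other 5.

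Bak1, a pore former, was dim. Its probe set 1418991_at read 230, 221 and 211 in stem-enriched cells, 417, 1800 and 381 in the cKit-positive cells and 279, 344 and 371 in cKit-negative cells. It read 331, 329 and 419 in lineage-depleted marrow and 489, 390 and 463 in total marrow. The value of 1800 came from the cKit-positive sample that stands apart. Without a test, the stem-enriched samples were the lowest of the 15. The other Bak1 probe set, 1425716_s_at, lay between 58.6 and 302.8 in the 16 samples and did not have that order.

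Bcl2l11, whose product Bim binds all survival proteins of the family, was lowest in cKit-positive cells by its brightest probe set. Probe set 1456005_a_at read 5549, 11439 and 15318 in stem-enriched cells, 3947, 3184 and 3025 in the cKit-positive cells and 9805, 10460 and 7872 in cKit-negative cells. It read 5592, 5863 and 7030 in lineage-depleted marrow, against 9741, 8057 and 7405 in total marrow. All 3 cKit-positive samples lay below the other 12. The cKit-positive cells were lower than cKit-negative cells by a log2 difference of -1.47 ± 0.29 (2.77-fold, adjusted p = 0.00294) and lower than total marrow by -1.31 ± 0.29 (2.48-fold, adjusted p = 0.00461), and both calls held without each sample in turn. Stem-enriched cells were 2.95-fold higher than cKit-positive cells (log2 difference 1.56 ± 0.29, adjusted p = 0.00817). That call was lost without stem-enriched replicate 2 (adjusted p = 0.0526) or 3 (0.0576). The mean log2 signal ran from 13.27 ± 0.75 (SD, n = 3) in stem-enriched cells through 13.18 ± 0.21 in cKit-negative cells, 13.03 ± 0.20 in total marrow and 12.58 ± 0.17 in lineage-depleted marrow to 11.72 ± 0.20 in cKit-positive cells. None of the neighbours in this order differed past the threshold. The 3 other tested probe sets of Bcl2l11 did not differ (adjusted p between 0.0985 and 0.871 in the F test). Of these, 1435448_at also had its lowest mean in cKit-positive cells, 1435449_at in lineage-depleted marrow and 1456006_at in total marrow. Probe set 1426334_a_at was too dim to be tested, and its mean signal was highest in cKit-positive cells (457.1, against 121.2 in stem-enriched cells).

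The Gapdh control ratio also differed between stem-enriched and cKit-positive cells, and its part in the differences above cannot be told from that of population. The mean log2 ratio of 3 prime to 5 prime Gapdh signal was 3.99 in stem-enriched samples and 2.08 in cKit-positive ones, against 3.09 in cKit-negative cells, 3.34 in lineage-depleted marrow and 3.12 in total marrow. Without replicate 2 the mean in cKit-positive samples was 2.93. With that ratio as a covariate none of the 4 family probe sets called between stem-enriched and cKit-positive cells passed, and the adjusted p was 0.0779 for 1456005_a_at and 0.0861 for 1456243_x_at, while their log2 differences were 1.53 and 1.43. Chip lot 1 among the arrays of type A holds the 3 stem-enriched samples and 2 cKit-positive samples, and within it the log2 differences were 1.67 and 1.89 (adjusted p = 0.11 and 0.0934). That alternative was added after the data had been seen.

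Pmaip1, the gene of the Mcl1-binding protein Noxa, was highest in cKit-negative cells. Probe set 1418203_at read 1491, 1689 and 2026 in stem-enriched cells, 859, 696 and 2140 in the cKit-positive cells and 2713, 6692 and 4314 in cKit-negative cells. It read 1817, 2357 and 1733 in lineage-depleted marrow, against 1490, 1706 and 2887 in total marrow. Among the 15 samples of the 5 populations the cKit-negative ones lay above all others, except that their replicate 1 was below total marrow replicate 3. Pmaip1 was lower in cKit-positive cells than in the cKit-negative ones by a log2 difference of -1.98 ± 0.39 (3.94-fold, adjusted p = 0.00315, held without each sample). In stem-enriched cells it was 2.48-fold lower than in cKit-negative cells (adjusted p = 0.0461), a call lost without any of 10 of the 15 samples, with an adjusted p of up to 0.226. The F call (adjusted p = 0.0188) was lost without cKit-negative replicate 2 (0.0973) or 3 (0.062). The summed signal of 8 T and NK lineage genes was 6480 to 12200 in stem-enriched samples and 11900 to 18200 in cKit-positive ones, against 23800 to 45700 in cKit-negative ones. It was 19000 to 22900 in lineage-depleted marrow and 11500 to 14800 in total marrow, and its part in the level of Pmaip1 was not tested.

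Bid links death receptors to mitochondria. Probe set 1417045_at read 1549, 793 and 806 in stem-enriched cells, 1773, 1814 and 1640 in the cKit-positive cells and 1716, 1745 and 1891 in cKit-negative cells. It read 1560, 1660 and 1719 in lineage-depleted marrow and 1282, 1642 and 1184 in total marrow. Stem-enriched replicates 2 and 3 lay below the samples of the 4 other populations, and replicate 1 lay among total marrow. The F test did not pass (adjusted p = 0.0909, or 0.0101 without stem-enriched replicate 1). Bid was 1.79-fold lower in stem-enriched cells than in the cKit-negative ones with an adjusted p of 0.0488. That call was kept with stem-enriched replicate 1 left out, or with cKit-positive replicate 2 left out, but lost without each of the 13 other samples, with an adjusted p of up to 0.199. Its 2 other probe sets were too dim to be tested.

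Bbc3, the gene of the p53-induced protein Puma, did not differ (adjusted p = 0.41 in the F test, or 0.0352 without cKit-positive replicate 1). Probe set 1423315_at read 938, 1012 and 536 in stem-enriched cells, 331, 1939 and 925 in the cKit-positive cells and 749, 606 and 592 in cKit-negative cells. It read 358, 355 and 573 in lineage-depleted marrow and 581, 426 and 598 in total marrow. The cKit-positive samples held both the highest and the lowest value of the 15.

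In the single Sca-1-positive cKit-negative sample 2 of the 5 tested Bcl2 probe sets were at the top of the series. Probe set 1457687_at read 14867 in it, 0.29 log2 units above the highest of the 15 other samples, and 1437122_at read 5040, 0.21 above the highest. The other Bcl2 probe sets were not, since 2 of the 15 samples lay above it in 1422938_at, 4 in 1443837_x_at and 4 in 1440770_at. Bid (1417045_at) read 722, 0.14 log2 units below the lowest. The other tested members lay within the range of the 15 samples: 1420888_at of Bcl2l1 read 2008, 1448503_at of Mcl1 23798, 1456005_a_at of Bcl2l11 7752, 1418203_at of Pmaip1 3785 and 1423315_at of Bbc3 862. The B lineage sum of 7 genes was 18400 in this sample, against 5860 to 10800 in stem-enriched cells and 21100 to 27200 in total marrow. Its T and NK lineage sum of 8 genes was 37500, above the 11500 to 14800 of total marrow. Its monocyte-macrophage sum of 7 genes was 106000, against 26800 to 50000 in stem-enriched cells and 79000 to 91800 in total marrow. The genes of this last sum did not all go the same way. Log2 signals of Mpeg1 (15.4), Ctss (15.1) and Cd68 (12.3) lay above their means in total marrow (14.0, 14.8 and 11.5). Those of Csf1r (13.4), Adgre1 (10.4), Ccr2 (11.1) and Ms4a6c (12.4) lay below theirs (14.6, 12.2, 11.8 and 12.6). The part of these sums in the levels was not tested.

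Over the 15 samples of the 5 populations, which share populations, chip and scaling, the members were loosely related. Pearson's r of log2 signal was 0.709 between Mcl1 and Pmaip1, 0.701 between Mcl1 and Bcl2l11, -0.559 between Bcl2 and Bcl2l1 and -0.593 between Bcl2l11 and Bid, on the brightest tested probe sets. Among 13592 other genes the patterns most like that of Bcl2l11 were Tgm2 (r = 0.957), Nfkbie (0.925) and Gimap1 (0.924). For Mcl1 they were Nfkbiz (0.932), Tsc22d2 (0.893) and Ptger4 (0.883), and for Pmaip1 Anxa5 (0.911), Slc15a4 (0.89) and Krit1 (0.881). For Bcl2l1 they were Atp6v1e1 (0.919), Niban3 (0.914) and Trem1 (0.905), and for Bcl2 Bex6 (0.896), Tespa1 (0.888) and Psmb8 (0.877).

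Of 15 further Bcl2 family genes 12 had a probe set of their own and 9 were tested. None of the 9 differed in limma's F test (17.1% of all probe sets did), and 2 had an unadjusted p under 0.05 (31.6% of all). In 1 comparison a gene passed: Bmf, a BH3-only gene, was 1.86-fold lower in cKit-positive cells than in total marrow (adjusted p = 0.0484). In that comparison 16.9% of all probe sets were called. None of 3 tested death receptor and adaptor genes passed in the F test or in any comparison. At an unadjusted limma p under 0.05 there was none in the F test and 1 gene in each of 3 comparisons, of cKit-positive cells with cKit-negative cells and with total marrow, and of cKit-negative cells with lineage-depleted marrow. The shares of all probe sets at that p were 31.6% in the F test and 25.8%, 30.9% and 15.2% in these comparisons. The effect of the samples on these lists was examined for cKit-positive replicate 2, without which 1 of the 9 family genes differed.

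Downstream of the mitochondrion 4 of 12 tested genes of the apoptosome and caspases differed across the populations in the F test, beside 17.1% of all probe sets. Apaf1, the scaffold of the apoptosome, read 1303, 924 and 969 in stem-enriched cells, 3105, 2409 and 2389 in cKit-negative cells and 2216, 2432 and 2353 in total marrow. It was 2.48-fold lower in stem-enriched cells than in the cKit-negative ones (adjusted p = 0.00184) and 2.21-fold lower than in total marrow (adjusted p = 0.00342). Casp9, the caspase it activates, was 2.13-fold lower in stem-enriched cells (adjusted p = 0.0348) and 2.36-fold lower in cKit-positive cells (adjusted p = 0.0163) than in total marrow. Endog, a mitochondrial nuclease, was 3.49-fold higher in cKit-positive cells than in total marrow (adjusted p = 0.00282). Its signals were dim, 1055, 665 and 1400 in cKit-positive cells and 502, 271 and 170 in total marrow, the last near the floor of 162.3. Diablo, which frees caspases from their inhibitors, was 1.83-fold higher in stem-enriched cells than in total marrow (adjusted p = 0.0106, but 0.0715 without stem-enriched replicate 2 and 0.0623 without total marrow replicate 3). The F calls of Casp9 and Diablo were lost without 6 and 7 of the 15 samples in turn. Without cKit-positive replicate 2 this list had 8 calls, with no share of all probe sets given for that fit.

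Of 5 caspase inhibitor genes 3 differed, Birc3, Birc2 and Birc6 (17.1% of all probe sets). Birc3, a ubiquitin ligase of the inhibitor of apoptosis family, read 1144, 249 and 1264 in cKit-positive cells, against 2712, 2961 and 2856 in cKit-negative cells. It was 3.99-fold lower in cKit-positive cells than in the cKit-negative ones (adjusted p = 0.00596) and 3.46-fold lower than in total marrow (adjusted p = 0.0088). Without cKit-positive replicate 2, the sample at 249, it was 2.36-fold and 2.05-fold lower (adjusted p = 0.00133 and 0.00386). The F calls of Birc2 and Birc6 (adjusted p = 0.0377 and 0.0498) were lost without 10 and 11 of the 15 samples in turn.

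Among 12 tested genes of p53 and its targets 5 differed in the F test (17.1% of all probe sets), with genes both higher and lower in cKit-positive cells. Trp53inp1, a stress-induced gene that acts in autophagy and cell death, read 2144, 2098 and 2632 in stem-enriched cells, 905, 480 and 802 in the cKit-positive cells and 4746, 4657 and 3347 in cKit-negative cells. It read 2313, 2356 and 1476 in lineage-depleted marrow, against 4890, 9534 and 7322 in total marrow. The cKit-positive samples were below all others, 5.97-fold lower than cKit-negative cells (adjusted p = 2.11e-05) and 9.93-fold lower than total marrow (adjusted p = 1.3e-06). Perp, a membrane protein of p53-dependent death, was 5.77-fold lower in cKit-positive cells than in the cKit-negative ones (adjusted p = 7.17e-05). Aen, a nuclease, was 2.15-fold higher in cKit-positive cells than in the cKit-negative ones (adjusted p = 0.00676). Cdkn1a, the cell cycle inhibitor p21, read 9698, 19716 and 18023 in stem-enriched cells, 2195, 4559 and 4417 in the cKit-positive cells and 3177, 1572 and 4932 in total marrow. It was 5.19-fold higher in stem-enriched cells than in total marrow (adjusted p = 0.00263). It was 4.27-fold higher than in cKit-positive cells (adjusted p = 0.0286), a call lost without stem-enriched replicate 2 (0.128) or 3 (0.123) or cKit-positive replicate 1 (0.0611).

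Partners of Bcl2 proteins differed in 2 of 12 tested genes, a share close to the 17.1% of all probe sets. Dynll2, the dynein light chain that holds Bmf, was 3.06-fold higher in stem-enriched cells than in total marrow (adjusted p = 0.000565). Tmbim6, a Bax inhibitor of the endoplasmic reticulum, was 1.82-fold lower in stem-enriched cells than in total marrow (adjusted p = 0.00368). This list had 4 calls without cKit-positive replicate 2, again with no share of all probe sets for that fit.

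Autophagy and mitophagy genes differed in 6 of 15 cases (17.1% of all probe sets). Gabarapl1, an Atg8 homologue, was 4.61-fold higher in stem-enriched cells (adjusted p = 0.000395) and 3.41-fold higher in cKit-positive cells (adjusted p = 0.00205) than in total marrow. Map1lc3a, another Atg8 homologue, read 13881, 6169 and 16012 in cKit-positive cells, against 33143, 47574 and 38984 in cKit-negative cells (3.55-fold lower, adjusted p = 0.00218). Sqstm1, the autophagy adaptor p62, was 1.99-fold higher in cKit-positive cells than in total marrow (adjusted p = 0.00989). Pink1, a kinase of damaged mitochondria, read 12115, 12257 and 10696 in stem-enriched cells, 7697, 3521 and 3711 in the cKit-positive cells and 6503, 4500 and 7460 in total marrow. It was 2.51-fold higher in stem-enriched than in cKit-positive cells (adjusted p = 0.0217), a call lost without any stem-enriched sample or without cKit-positive replicate 3, with an adjusted p between 0.0507 and 0.0905.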

How the data were processed

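Gene expression was measured in 16 RNA samples of 6 marrow populations, on 32 arrays. The deposited values are an intensity per probe set on a linear scale, made with MAS5 per the submitters' processing notes, with no version named there. They had been scaled by the authors, since every array had a 2% trimmed mean of 1500 to 1501. The deposited instrument records, text of no measured unit (unit: other), gave chip lot, scan day and a sample description.

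The 25th percentile of all signals of each chip type (162.3 for A and 268.1 for B) served as a floor, and signals were then taken to log2. Probe sets entered the test when 3 or more arrays read above the chip type's median (535.3 for A and 843.8 for B), as 13774 of 22626 did for A and 15175 of 22411 for B. R 4.3.3 and limma 3.58.1 fitted each chip type by itself, with population as the only factor and a variance trend, to the 15 samples of 5 populations. The single sample was left out of the fit. An F test and 10 two-sided comparisons were adjusted by Benjamini-Hochberg over all 28949 tested probe sets, with a threshold of 0.05. On simulated data with the design of stem-enriched over cKit-positive cells (13774 probe sets), 21% of changes of 1 log2 unit and 72% of changes of 2 log2 units were called.

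Of 45037 probe sets 34945 had 1 gene symbol in the platform annotation, 932 had several and 9160 were unnamed. Members were named with all their probe sets, list genes as the up to 4 with the largest F among those called, and like patterns as the 3 genes with the highest r per member called. Each list gene was read from its brightest tested probe set. Bmf falls outside this rule and was named after its value was seen. Members and lists were chosen with earlier results of these data known. Replicate numbers were not taken as pairs, and the fits have no block. The correlation of deviations between samples of the same number was -0.08 to 0.12, with a median of 0.015, against a median of -0.003 for other pairs. It was highest with a sample of the same number for 9 of 15 samples, so the check does not show that the samples were unpaired. Alternatives were other normalization, floor, filter and variance settings, chip lot, scan day, replicate number and Gapdh ratio as terms, only the compared populations in the fit, an average of the probe sets of a gene and each sample left out. Figures were drawn with Python 3.11.15 and matplotlib 3.10.9.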

Additional observations from a re-analysis of the deposited data

How the results depend on the processing

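None of the results checked was counted as reversed under any alternative. The sign of a small difference, such as -0.02 for 1448503_at between stem-enriched and cKit-negative cells, still depends on the samples used. Of single probe set results 2813 kept their side of the threshold, 514 lost the call and 5 gained it. The count of 11 family probe sets in the F test was 8 to 13 without each sample in turn and stayed within 1.5 times under all other alternatives. Between stem-enriched and cKit-positive cells the count of 4 was 0 with the Gapdh ratio as a covariate, 0 with only these populations in the fit and 0 in lot 1 of chip type A alone (chosen after seeing the data), and 1 to 8 without each sample. Between stem-enriched and cKit-negative cells the count of 3 was 1 with quantile normalization, a floor at the 50th percentile, or without the filter or the variance trend, 0 with scan day as a random block or within chip lot 1, and 0 to 3 without each sample. Between stem-enriched cells and lineage-depleted marrow it was 0, 1 with the replicate block, and 0 to 5 without each sample. Between stem-enriched cells and total marrow it was 5, and 4 to 5 without each sample. Between cKit-positive and cKit-negative cells the count of 8 was 4 with only these populations in the fit, 3 within chip lot 1, and 6 to 9 without each sample. For cKit-positive cells it was 0 to 1 against lineage-depleted marrow and 5 to 8 against total marrow without each sample. Between cKit-negative cells and lineage-depleted marrow the count of 0 was 3 with the Gapdh ratio, 2 with only these populations, and 0 to 3 without each sample. Between cKit-negative cells and total marrow the count of 1 was 0 with chip lot as a block, 4 with the Gapdh ratio, 3 with only these populations, and 0 to 4 without each sample. Between lineage-depleted and total marrow the count of 3 was 1 with chip lot or scan day as a block, 6 with the Gapdh ratio, 8 with only these populations, and 0 to 6 without each sample. With only the compared populations, 6 samples estimate the spread; the other causes were not tested. An average of the probe sets of a gene gave 2 calls in place of 4 for the apoptosome and caspases and 3 in place of 5 for p53 and its targets. Without cKit-positive replicate 2 the lists had 1 call (other family), 8 (caspases) and 4 (partners), and the share of all probe sets in that fit is not given. In the pairing check 9 of 15 samples correlated best with a sample of their own number, and beside the replicate block named above no other count moved by over 1.5 times with it. With 3 samples per population and dim signals, members near the floor such as Bak1 could not be compared.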
